A study of Mus musculus with 6 samples.

Results

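The clustered protocadherin genes lie in tandem arrays on mouse chromosome 18, named alpha, beta and gamma. Members were taken by symbol from the GENCODE vM21 annotation of GRCm38 (mm10): every protein-coding gene of chromosome 18 whose symbol starts with Pcdha, Pcdhb or Pcdhga, Pcdhgb or Pcdhgc followed by a number, with the alpha C-type genes included. The rule gave 57 of 21938 protein-coding genes: 14 alpha, 22 beta and 21 gamma. The alpha cluster spanned chr18:36930184-37187661, the beta cluster chr18:37264938-37524479 and the gamma cluster chr18:37661793-37841873, so that the whole locus covered 911.69 kb. A pair of alpha genes carried the same symbol, Pcdha11, and they are kept apart by gene ID, ENSMUSG00000007440 at the 10th place of the array and ENSMUSG00000102206 at the 11th. Pcdhgb8 was annotated as a polymorphic pseudogene and is no member.

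The data were 6 lists of called H3K27ac ChIP-seq peaks from bulk retina of wild-type mice that were 3 months old at the first treatment. In the 3 samples of the 4xIOP group, the intraocular pressure (IOP) of the eye had been raised to 30 mmHg for 1 h, biweekly and 4 times in all. The 3 control samples came from untreated contralateral eyes, so that every animal carried a treated eye, and tissue was taken at day 2 from the final elevation. A protocol text shared by all samples also describes injection of dasatinib or vehicle, and the labels of these 6 samples name neither. The comparison asks whether repeated mild pressure changed the acetylation of histone H3 at lysine 27, a mark of active promoters and enhancers.

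Clustered protocadherins are cell-surface proteins of neurons that bind identical isoforms on neighbouring cells. In the alpha and gamma clusters each variable exon has its own promoter and is spliced to a shared set of constant exons, whereas beta genes are made of a single large exon. A neuron transcribes a few variable exons, chosen through promoter methylation and through loops between promoters and distant enhancers that CTCF and cohesin hold, while the C-type exons at the 3′ ends of the alpha and gamma arrays are used by most neurons. In the retina these proteins are known for the self-avoidance of starburst amacrine cell dendrites and for the survival of interneurons.

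The lists held between 16195 and 36509 peaks, and the longest was control replicate 3. The caller's mean background, recovered from each peak's fold enrichment and p-value, ran from 2.01 to 3.38 fragments. Divided by the length of the shortest peak of each list, used in place of a fragment length, this was 87.4 to 173 fragments per 10000 bp. A peak over mean background needed at least 9 to 12 fragments. Of the 6 lists, 4 carried in their own name the name of the other group (replicates 1 and 2 of both groups), so that each direction below holds for the groups as labelled. The 2 lists whose name matched their label were control replicate 3 and 4xIOP replicate 3. Promoters of the photoreceptor genes Nrl, Pde6b, Rcvrn and Prph2 had a peak in all 6 lists, as had Prkca of the bipolar list, Slc6a9 of the amacrine list and Glul of the Müller glia list, so that the lists carried retinal promoters. Crx, also of the photoreceptor list, had one in 5 lists and not in 4xIOP replicate 1. Of 5 ganglion cell genes, Rbpms had a peak in 4xIOP replicates 1 and 3, Thy1 in control replicate 3, and Pou4f1, Pou4f2 and Slc17a6 in none. None of the 4 starburst amacrine, 4 microglia, 4 pigment epithelium, 3 endothelium or 4 hepatocyte genes had one, and of 4 skeletal muscle genes Ckm had one in 4 lists. In bulk tissue, fewer cells of a type and less signal per cell cannot be told apart.

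Few clustered protocadherin promoters carried a called peak. A promoter was counted where a peak overlapped 1 kb either side of any annotated transcription start site (TSS) of the gene by at least 1 bp. In the control lists 5, 4 and 16 of the 57 promoters were counted (replicates 1, 2 and 3), and in the 4xIOP lists 4, 5 and 3. Peaks were found at 16 members (28.1%) in at least 1 list, against 56.0% of all protein-coding genes. In all 6 lists a peak was found at 2 members (3.51%), Pcdhac2 and Pcdhgb6, against 38.1% of all protein-coding genes. With −log10 q of at least 5, 0 members had a peak in all 6 lists, and with the 16195 top peaks of every list Pcdhgb6 alone had. For 41 members no list held a promoter peak, and for 9 further members the list of control replicate 3 was the one list with a peak. Absence of a peak says that the summit did not pass the caller's threshold at this depth, not that the mark was absent.

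**Figure D1:**
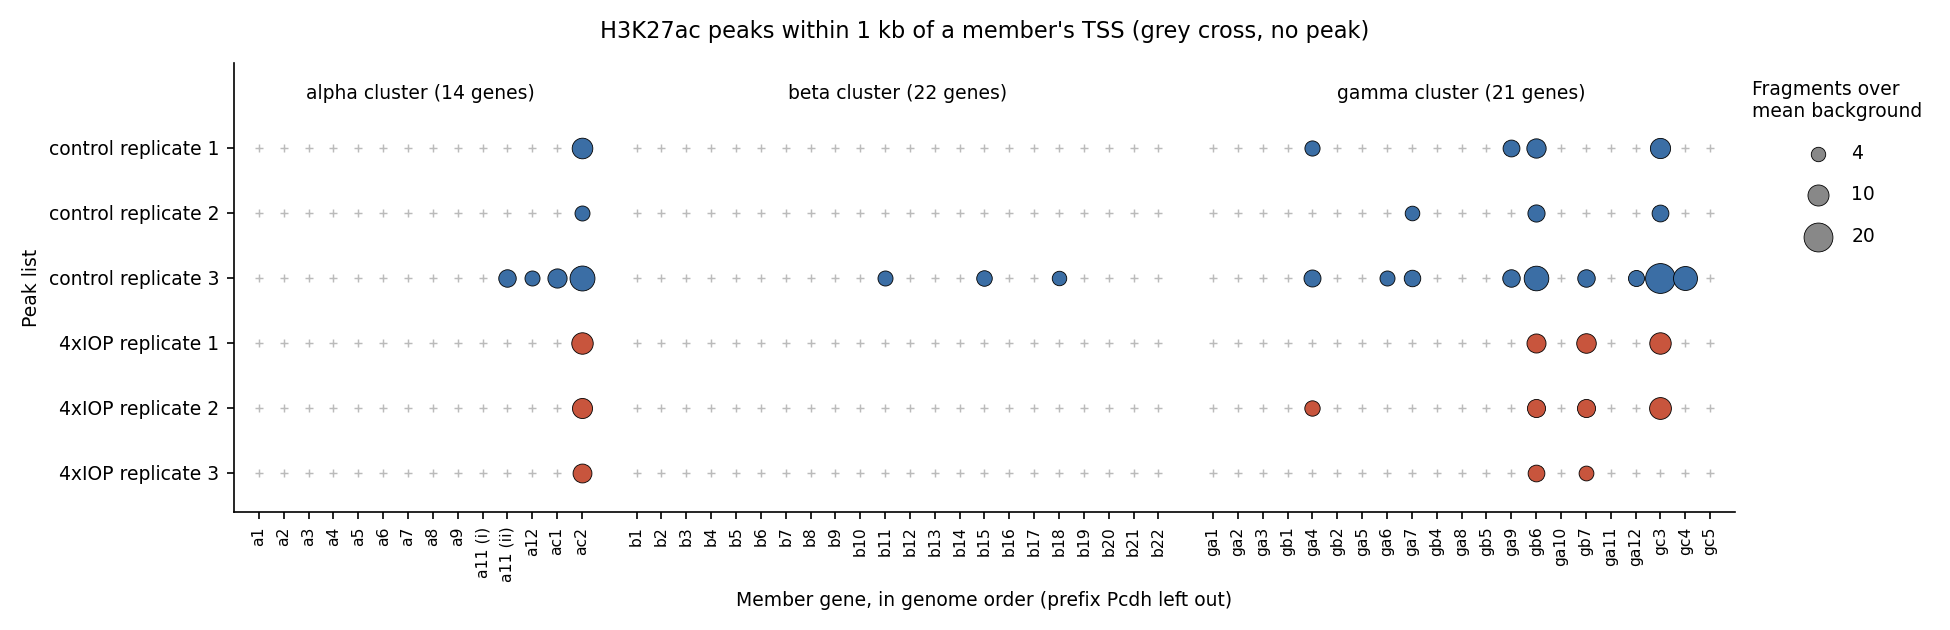
Promoter peaks of the 57 members (columns, in genome order) in the 6 lists (rows, control in blue, 4xIOP in red), with circle area rising with the number of fragments at the summit over the mean background of the list; a grey cross marks no peak, and (i) and (ii) are the Pcdha11 genes ENSMUSG00000007440 and ENSMUSG00000102206. The Pcdhac2 and Pcdhgb6 columns are filled in all 6 lists, and the beta block is empty except for 3 genes in control replicate 3.

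The C-type members had a higher share of marked promoters than any of the 3 clusters in every list as deposited. With −log10 q of at least 5, and likewise with the 16195 top peaks, this did not hold in control replicate 2, where 0 of 5 C-type and 1 of 21 gamma members were marked. There are 5 of them, Pcdhac1 and Pcdhac2 at the end of the alpha array and Pcdhgc3, Pcdhgc4 and Pcdhgc5 at the end of the gamma array. Of these, 2, 2 and 4 had a promoter peak in control replicates 1, 2 and 3, and 2, 2 and 1 in 4xIOP replicates 1, 2 and 3. Their share was 20 to 40% in 5 lists, under the 43.5 to 47.4% of other protein-coding genes in those lists, and 80% in control replicate 3, where other genes had 55.5%. The 52 other members gave 3, 2 and 12 in the control lists and 2, 3 and 2 in the 4xIOP lists.

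Pcdhac2, the last variable exon of the alpha array, was marked in every list as deposited, and was lost in control replicate 2 with −log10 q of at least 5 and with the 16195 top peaks. Its peaks reached 21, 15 and 36 fragments in control replicates 1, 2 and 3 and 21, 19 and 20 in 4xIOP replicates 1, 2 and 3. Divided by the mean background of each list, these were 9.58, 4.44 and 14.6 in the control lists and 10.4, 8.95 and 7.79 in the 4xIOP lists. The 3 treated values lay between the lowest and the highest control value. The fold enrichment of the Pcdhac2 peak stood at a percentile of 73.2 among all peaks of control replicate 1, of 24.8 in control replicate 2 and of 79.0 in control replicate 3, and at 73.9, 80.1 and 63.6 in the 4xIOP lists.

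Pcdhgc3, the first C-type exon of the gamma array, was marked in 5 lists and not in 4xIOP replicate 3. The region of these peaks also lay within 1 kb of a TSS of another gene, BC037039, and overlapped an exon of it. The peaks therefore cannot be assigned to Pcdhgc3 alone. With −log10 q of at least 5, and with the 16195 top peaks, 3 lists had its peak, those of control replicates 1 and 3 and 4xIOP replicate 2. Its summit fragments were 20, 20 and 53 in the control lists and 21 and 23 in 4xIOP replicates 1 and 2. The peak of control replicate 3 was also the widest of the gene, 1040 bp, and stood 21.5 times over mean background, against 5.92 to 10.8 times in the other 4 lists. Local background was above the mean here, 1.6 to 3.4 times in these 5 lists, and fold percentiles ran from 27.6 to 76.4. Pcdhac1 and Pcdhgc4 had a peak in control replicate 3 alone, with 20 and 33 fragments, and the Pcdhac1 peak stood at the fold percentile of 79.2, against 91.1 for the Pcdhgb6 peak of the same list. Pcdhgc5, the last exon of the gamma array, had no peak in any list.

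Among the other gamma members, Pcdhgb6 was marked in every list as deposited. With −log10 q of at least 5 it was lost in 4xIOP replicates 2 and 3. Its summits held 18, 21 and 35 fragments in the control lists and 16, 15 and 15 in the 4xIOP lists, or 8.21, 6.21 and 14.2 times mean background in the control lists and 7.96, 7.07 and 5.85 times in the 4xIOP lists. The treated and control ranges overlapped. Pcdhgb7, a neighbour of the same B subfamily, had a peak in all 3 4xIOP lists (17, 15 and 11 fragments) and in control replicate 3 (16 fragments). It had none in control replicates 1 and 2, and the value of control replicate 3 lay within the treated range. With −log10 q of at least 5 its peak was found in control replicate 3 and 4xIOP replicate 1 alone. Pcdhga4 had peaks of 10 and 15 fragments in the lists of control replicates 1 and 3 and of 10 fragments in 4xIOP replicate 2. Pcdhga7 was marked in control replicates 2 and 3 with 14 fragments in each, and Pcdhga9 in control replicates 1 and 3 with 13 and 16. Pcdhga6 and Pcdhga12 had a peak of 11 and 13 fragments in control replicate 3 and in no other list. In all, 12 gamma members had none in any list, Pcdhga1, the first of the array, among them.

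In the alpha array upstream of the C-type exons, 2 of 12 genes had a peak, both in control replicate 3: Pcdha11 (ENSMUSG00000102206) with 16 fragments and Pcdha12 with 11. These are neighbours at the 3′ end of that row, and Pcdha1 to Pcdha9 and the other Pcdha11 gene (ENSMUSG00000007440) had none. An antisense gene, Gm10545, overlapped both peaks, and a peak carries no strand. The Pcdha12 peak also lay within 1 kb of a TSS of Gm10545, so that it cannot be assigned to Pcdha12 alone.

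The beta array was the least marked. None of its 22 promoters had a peak in 5 of the 6 lists. In control replicate 3, Pcdhb11, Pcdhb15 and Pcdhb18 had peaks of 11, 12 and 10 fragments, near the 9 fragments that a peak over mean background needed in that list. The first and last genes, Pcdhb1 and Pcdhb22, had none. In the 5 lists other than control replicate 3, no peak of any kind fell within the 259.542 kb of the cluster.

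The share of member promoters with a peak was 14.6 ± 11.7% in the control lists and 7.02 ± 1.75% in the 4xIOP lists (SD, n = 3), a difference of -7.60 percentage points that was smaller than the control SD. By list, the shares were 8.77, 7.02 and 28.1% in control replicates 1, 2 and 3 and 7.02, 8.77 and 5.26% in 4xIOP replicates 1, 2 and 3, so that the groups overlapped. Without control replicate 3 the difference was -0.88 points. With the 16195 top peaks of every list, 3, 1 and 3 members were counted in the control lists and 3, 4 and 3 in the 4xIOP lists, and the difference turned to 1.75 points. With −log10 q of at least 5 it was -4.09 points. Between the 2 lists whose name matched their label, it was -22.8 points, with no replicate. All other protein-coding genes had shares of 47.4, 45.0 and 55.5% in the control lists and 46.2, 44.3 and 43.5% in the 4xIOP lists, and the member share minus theirs ran from -39.2 to -27.5 points. The 456 other genes of chromosome 18 had 53.7 to 65.8% in the control lists and 52.9 to 56.4% in the 4xIOP lists.

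**Figure D2:**
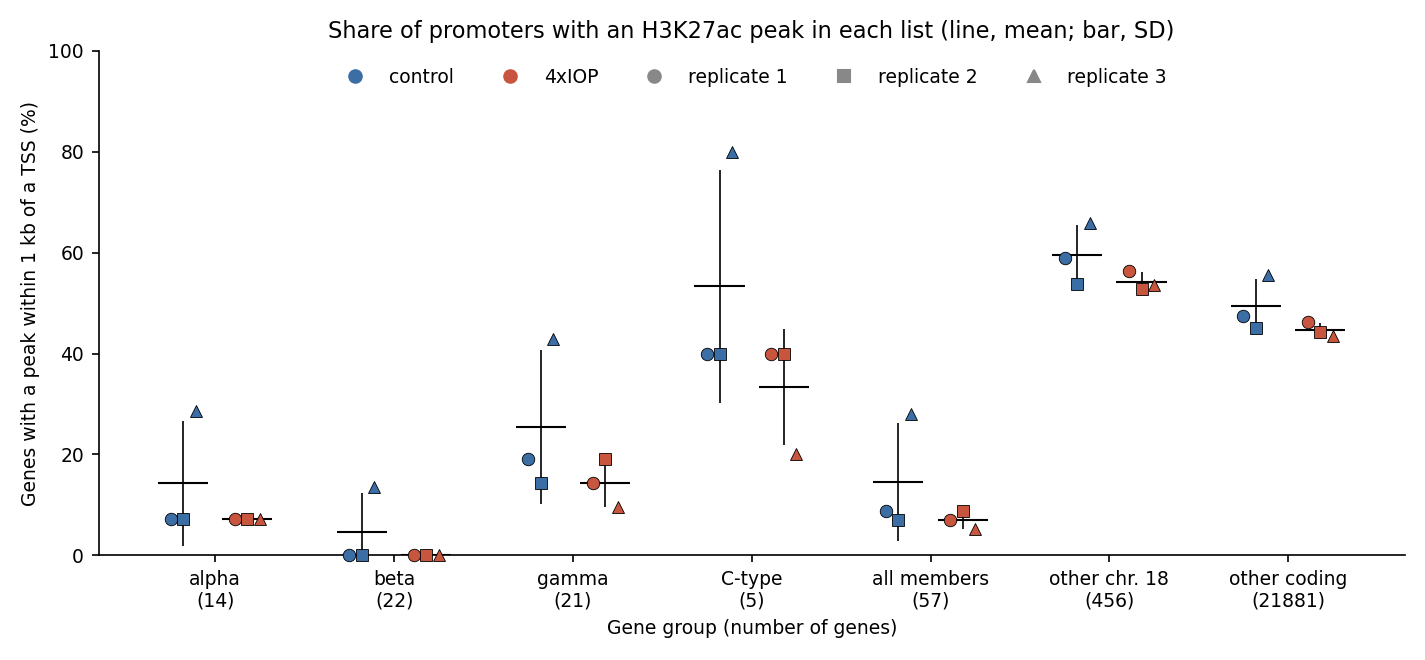
Percent of genes with a promoter peak (vertical axis) in each of 3 control (blue) and 3 4xIOP (red) lists, by gene group (horizontal axis, number of genes in parentheses); marker shape gives the replicate number, the line the mean and the bar the SD. All 6 member shares (5.26 to 28.1%) lie under those of the other protein-coding genes (43.5 to 55.5%), and the triangle of control replicate 3 is the highest point of every group.

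No member had a peak in each of the 3 control lists and none in the 4xIOP lists, where 0.356% of all protein-coding genes did (78 genes). Likewise 0 members had one in all 4xIOP lists and in no control list, as did 0% of all protein-coding genes. With each list cut to its 16195 top peaks, Pcdhgb7 was marked in the 3 4xIOP lists and in none of the control lists, as were 11 of all protein-coding genes, and 24 genes had the opposite pattern. By the group names that the lists themselves carry, the 3 lists with Pcdhgb7 would be 2 control lists and 1 4xIOP list, so that this pattern rests on the labels.

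The member peaks had a position in common. All 37 member promoter peaks over the 6 lists had the summit downstream of the TSS, between 88 and 549 bp with a median of 207 bp, and all of these summits lay within the variable exon, or within the single exon for beta genes. The peak covered the start codon in 33 of 37. Of the promoter peaks of other protein-coding genes, 65.9 to 72.3% had the summit downstream, with medians between 139 and 171 bp. The 37 peaks are not independent, since 7 genes gave 28 of them. Member peaks held 10 to 53 fragments with a median of 16, whereas the median of other promoter peaks ran from 27 to 52 by list, and member fold percentiles ran from 18.05 to 91.1. The median member percentile was under that of other promoter peaks in 5 lists (32.1 to 62.6 against 60.3 to 73.5) and over it in 4xIOP replicate 1 (68.4 against 64.7). In each list the median member peak held fewer fragments than the median of other promoter peaks, for example 19 against 30 in 4xIOP replicate 1 and 15.5 against 52 in control replicate 3. Member peaks were narrower in every list too, for example 389 against 478 bp in control replicate 1 and 344 against 390 bp in 4xIOP replicate 3.

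Outside member promoters, 10 regions were called between the start of the alpha and the end of the gamma cluster. Control replicates 1, 2 and 3 held 6, 6 and 10 of them and 4xIOP replicates 1, 2 and 3 held 5, 7 and 7 (difference of means -1, two-sided exact permutation p = 0.8, smallest possible 0.1). Known distant enhancers of the alpha cluster lie in its constant part and downstream of it, and those of the beta and gamma clusters lie downstream of the gamma array. No coordinates of these elements were in the sources used here, and the regions below are described by position alone.

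Near the alpha constant exons, 4 neighbouring regions lay between chr18:37177783 and chr18:37180688, in the interval between the second constant exon (ending at 37159353) and the third (starting at 37184946). The farthest downstream of them was called in all 6 lists, with 29, 39 and 70 fragments in the control lists and 47, 44 and 29 in the 4xIOP lists. The other 3 regions lay within 1 kb of the TSS of Gm10544, a noncoding transcript of the opposite strand. The one nearest to that TSS was called in all 3 control lists (40, 49 and 79 fragments) and in 4xIOP replicate 3 (29 fragments). The next one, at higher coordinates, was called in control replicate 3 (59 fragments) and in 4xIOP replicates 2 and 3 (39 and 24 fragments), and the third in control replicate 3 alone (50 fragments), so that of the 6 lists 4xIOP replicate 1 had no peak in these 3 regions. The region called in all 6 lists and the one nearest to the TSS stood on a high local background, 3.6 to 8.9 times the mean of the list, so that their fold percentiles were 3.40 to 40.8 in spite of fragment numbers above those at every member promoter of the same list. A further region lay 29.9 kb past the end of the alpha cluster at chr18:37217585-37218268. It was called in all 6 lists with 24, 23 and 27 fragments in the control lists and 22, 21 and 14 in the 4xIOP lists, on a local background of 1.0 to 1.2 times the mean, and its fold percentile was 82.9 to 93.8 in 5 lists and 44.2 in 4xIOP replicate 3.

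Between the beta and gamma clusters, Taf7, which encodes a subunit of the general transcription factor TFIID and is no protocadherin, had 2 regions at its TSS in all 6 lists. The stronger held 29, 32 and 67 fragments in the control lists and 34, 30 and 29 in the 4xIOP lists, with fold percentiles from 86.6 to 98.7. The lincRNA 3222401L13Rik, whose gene starts shortly before the gamma cluster, had one region in all 6 lists with 28, 27 and 56 fragments in the control lists and 27, 27 and 20 in the 4xIOP lists. Slc25a2, next to Taf7, and the read-through genes Gm42416, Gm37013 and Gm37388 had no promoter peak in any list. Inside the gamma array, one region outside the promoters was called, in control replicate 3 alone.

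Past the gamma cluster, 8 regions were called within 50 kb, all in the body of Diaph1, which encodes a formin that acts on actin and is transcribed toward the cluster. A pair of them, 34.9 and 37.7 kb past the end of the gamma cluster, was called in all 6 lists. The one at chr18:37879615-37880296 held 70, 73 and 78 fragments in the control lists and 44, 46 and 49 in the 4xIOP lists. Over mean background these values were 31.9, 21.6 and 31.6 in the control lists and 21.9, 21.7 and 19.1 in the 4xIOP lists, and the groups overlapped on that scale. The local background of this region was 3.7 to 6.8 times the mean, and its fold percentile stayed between 58.8 and 70.7.

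**Figure D3:**
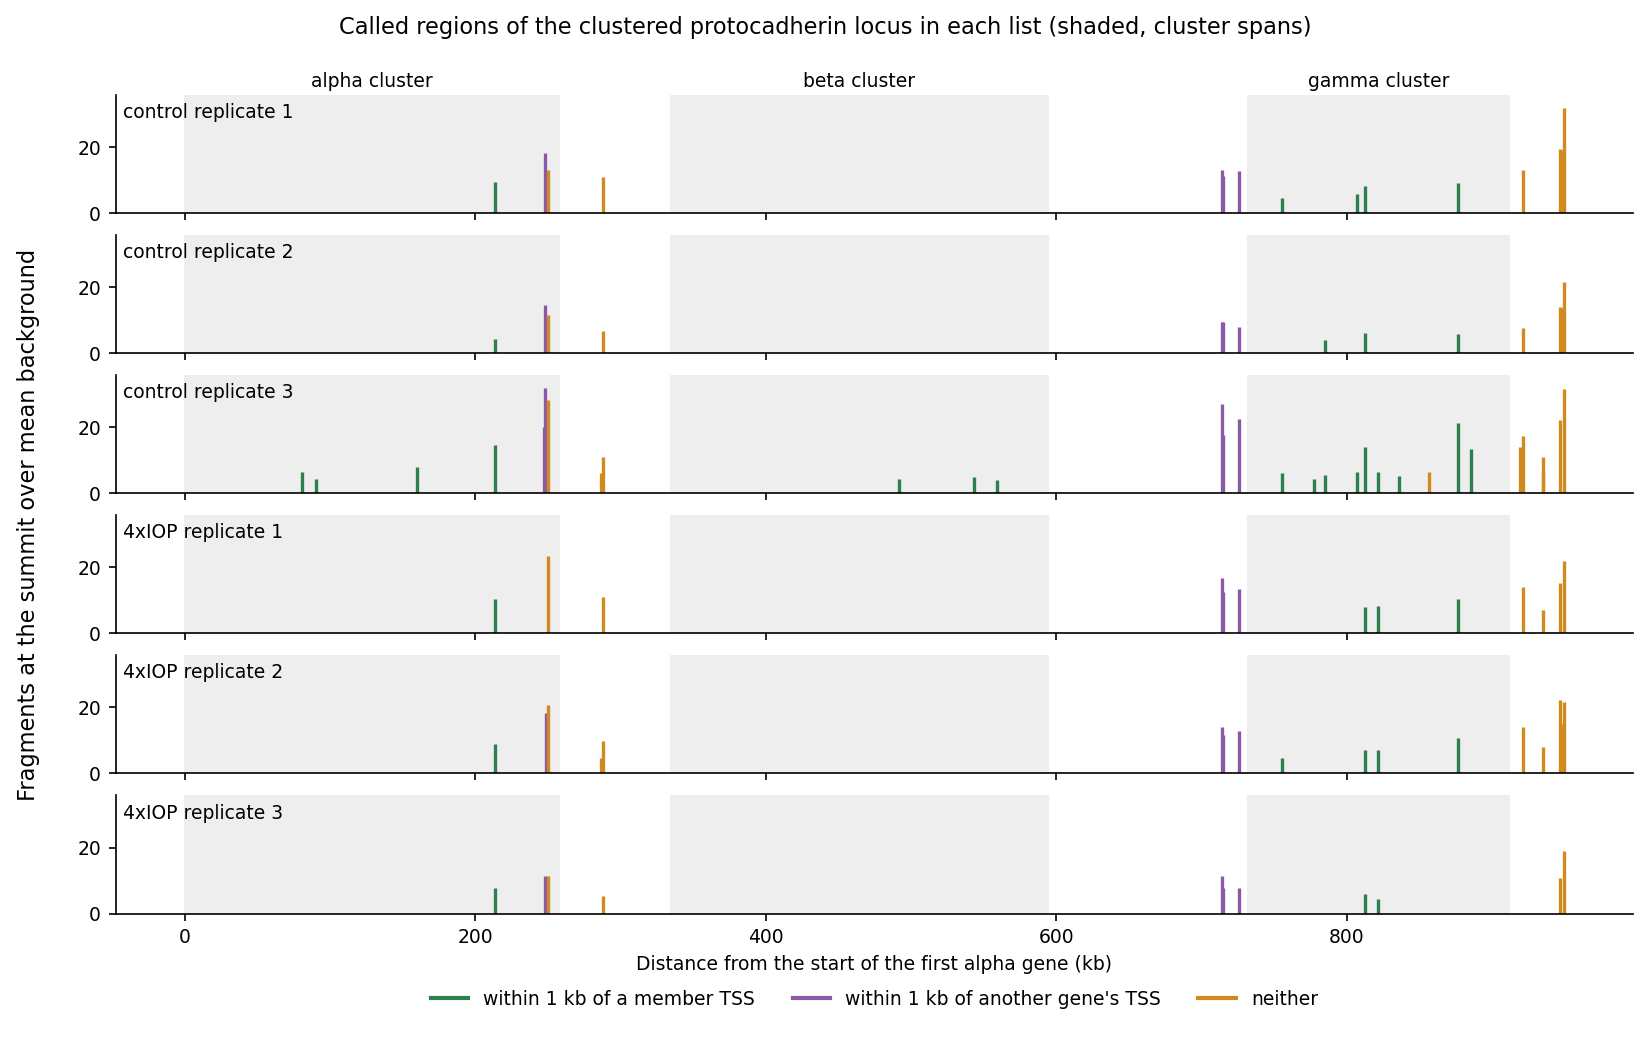
Called regions across the locus in each list, by distance from the start of the first alpha gene (horizontal axis, kb) and fragments at the summit over mean background of the list (vertical axis); cluster spans are shaded and colour gives whether a region lay within 1 kb of a member TSS, of another gene's TSS or of neither. The highest lines stand at the alpha constant exons, between beta and gamma and past the gamma cluster, and the beta span is empty in 5 of 6 lists.

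The locus held 11, 10 and 27 peaks in control replicates 1, 2 and 3 and 9, 12 and 11 in 4xIOP replicates 1, 2 and 3. Per Mb this was 12.1, 10.97 and 29.6 in the control lists against 8.03, 7.31 and 13.4 over the genome, and 9.87, 13.2 and 12.1 in the 4xIOP lists against 7.46, 7.63 and 5.94 over the genome. So the locus was no poorer in peaks than the genome per length, and most of the peaks of 5 lists lay outside member promoters.

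In all 6 lists 9 regions of the locus and its 50 kb flanks were called. On fragments over mean background the groups overlapped at all 9, and the exact permutation p ran from 0.3 to 1 (two-sided, Benjamini-Hochberg adjusted over 9 regions 0.9 to 1). The Pcdhac2 promoter was at 9.53 ± 5.07 in the control lists and 9.06 ± 1.33 in the 4xIOP lists (SD, n = 3, exact permutation p = 0.9). The Pcdhgb6 promoter was at 9.53 ± 4.14 and 6.96 ± 1.06 (SD, n = 3, exact permutation p = 0.4). The lowest p, 0.3 by the exact permutation test, was that of the Diaph1 region at 37879615, with 28.4 ± 5.87 in the control and 20.9 ± 1.55 in the 4xIOP lists (SD, n = 3). By limma on normal scores of fold rank within each list, 0 of these 9 regions passed an adjusted p of 0.05, as did 0% of 10529 regions for higher and 0% for lower values in 4xIOP. An unadjusted limma p under 0.05 was found at 357 of the 10529 regions and at 0 of the 9, which are too few to read a difference from. The score difference, 4xIOP minus control, was 0.53 ± 0.34 (SE) at Pcdhac2 and -0.45 ± 0.32 (SE) at Pcdhgb6, with a limma adjusted p of 1 at both. Without 4xIOP replicate 3, the Pcdhgc3 promoter entered the fit with a difference of -0.12 ± 0.36 (SE) and a limma adjusted p of 0.981.

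**Figure D4:**
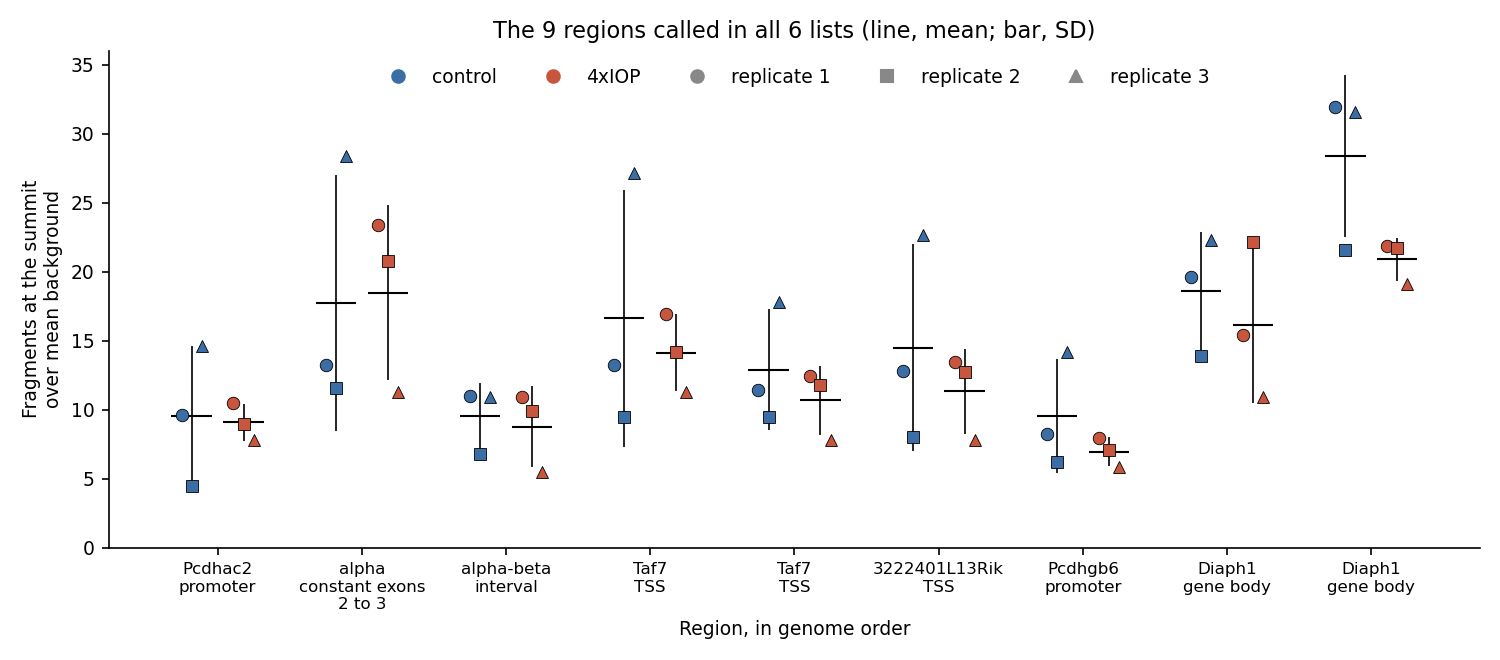
Fragments at the summit over the mean background of the list (vertical axis) at the 9 regions called in all 6 lists (horizontal axis, in genome order), for 3 control (blue) and 3 4xIOP (red) lists; marker shape gives the replicate number, the line the mean and the bar the SD. Control and 4xIOP points overlap at all 9 regions, and both protocadherin promoters have control means of 9.53.

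Member promoters held less G and C than those of marked genes, which is given as a description with no test. Over 500 bp either side of the most upstream TSS, the content of G and C had a median of 44.9% over the 57 members, with a range of 33.8 to 58.4%. It was 60.1% over the 8365 other protein-coding genes with a peak in all 6 lists and 47.7% over the 9601 with a peak in none. CpG observed over expected, which is low where CpG sites have been lost, had a median of 0.684 in the alpha, 0.378 in the beta and 0.594 in the gamma cluster, against 0.773 over other genes with a peak in all 6 lists and 0.209 over those with none. The alpha median lay within the quartiles of those marked genes (0.662 to 0.872), while the G and C content of alpha promoters, with a median of 45.7%, lay under theirs (55.5 to 65.0%). Within the family, the 7 members with a peak in at least 2 lists had a median G and C content of 49.4% and the 41 with a peak in no list 44.2%. Pcdhgc3 and Pcdhac2 had the highest values of all members, 58.4 and 57.7%. Pcdhgc5, without a peak, had 52.7% and a CpG ratio of 0.233, the lowest of the gamma cluster.

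**Figure D5:**
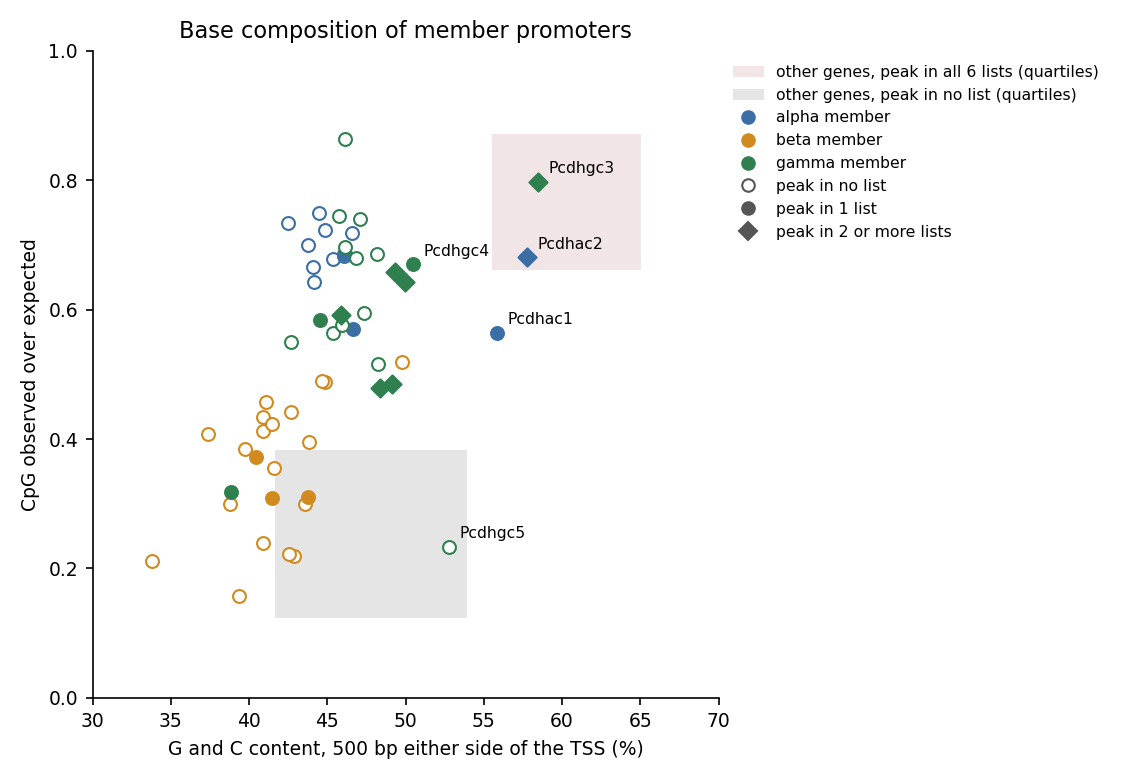
G and C content (horizontal axis, percent) and CpG observed over expected (vertical axis) within 500 bp of the TSS for each of the 57 members, coloured by cluster; open circles had a peak in no list, filled circles in 1 list and diamonds in 2 or more, and shaded boxes span the quartiles of other protein-coding genes. Pcdhgc3 and Pcdhac2 lie in the box of genes with a peak in all 6 lists, and beta members lie low and left.

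Members are near copies of each other in part, and reads that lie wholly in identical stretches cannot be placed. The study describes paired-end reads of 100 bp, so that a repeated 50-base stretch need not leave a fragment unplaced. Of all 50-base stretches within 1 kb of the TSS, a median of 98.8% occurred once in the genome over the members (range 82.1 to 100%), and 9 members were under 90%. The alpha cluster had a median of 91.9%, the beta cluster 100% and the gamma cluster 100%. Every stretch occurred once for 18 of the 41 members with a peak in no list and for 7 of the 16 with a peak in at least 1. The same held for 308 of the 456 other genes of chromosome 18. The beta genes from Pcdhb16 to Pcdhb22 were at 100% throughout, and 1 of these 7 had a peak in a list. Whether repeated sequence bears on the calls was not tested.

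The genes next to the locus were marked in every list. Zmat2, the nearest protein-coding gene upstream, had 25, 19 and 41 fragments in the control lists and 17, 18 and 20 in the 4xIOP lists. Diaph1, the nearest downstream, had 38, 41 and 75 fragments at its TSS in the control lists and 34, 43 and 30 in the 4xIOP lists. Non-clustered protocadherins, related cell-surface proteins each encoded by a gene elsewhere, had a promoter peak at 0 of 12 in all 6 lists and at 3 of 12 in at least 1, beside 38.1% and 56.0% of all protein-coding genes. Pcdh15, which works in hair cells and photoreceptors, had a peak in 5 lists, with 33 and 53 fragments in control replicates 1 and 3 and 32, 41 and 31 in 4xIOP replicates 1, 2 and 3. Pcdh1 had one in control replicates 1 and 3 (17 and 38 fragments) and Pcdh9 in control replicate 3 (22 fragments).

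Of 22 genes known to control the clusters, 19 had a promoter peak in all 6 lists and 21 in at least 1, beside 38.1% and 56.0% of all protein-coding genes, as a description with no test. Ctcf, which encodes the protein that binds most variable promoters, reached 29.7, 28.4 and 48.2 times mean background in the control lists and 29.3, 27.3 and 23.0 times in the 4xIOP lists. The cohesin genes Rad21, Smc3, Stag1 and Stag2 were marked in all 6 lists and Smc1a in 3. Smchd1, which represses clustered protocadherins, reached 21.4, 13.6 and 43.3 times mean background in the control lists and 25.4, 19.3 and 15.2 times in the 4xIOP lists. Dnmt3b, which methylates their promoters early in development, reached 20.5, 9.47 and 23.9 times in the control lists and 14.9, 14.1 and 11.7 times in the 4xIOP lists. On this scale the groups overlapped at 17 of the 19 genes marked in all lists. Every 4xIOP value lay under every control value at Stag2 (15.05, 15.7 and 24.7 against 12.9, 13.2 and 13.3) and at Tet3 (21.4, 15.4 and 37.7 against 11.4, 10.8 and 14.8), as at 1.02% of the 8367 protein-coding genes marked in all 6 lists, while the fold percentiles of both genes overlapped between the groups, and neither was tested alone. At 0 of the 19 did every 4xIOP value lie over every control value, as at 0.0239% of those 8367. Setdb1 lacked a peak in 4xIOP replicate 2, and Tet1 was the one gene of the list with no peak in any list. Of 7 genes for intracellular partners, 4 had a peak in all 6 lists and 5 in at least 1, beside 38.1% and 56.0% of all protein-coding genes and too few genes to read a difference from. Ptk2, Wasf1, Cyfip2 and Axin1 were marked in all 6 lists, Ret in control replicate 3, and Ptk2b and Marcks in none.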

How the data were processed

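Bulk mouse retinas (3 control and 3 4xIOP samples) were profiled by H3K27ac ChIP-seq, with 1 deposited peak list per sample and no reads or counts. The processing notes name mm10, STAR 2.7.8a, MACS2, HOMER, edgeR and bedtools 2.29.2 without roles, and the aligner and peak caller of these lists are not given in the sources used here. The deposited columns were the peak coordinates, a score, the fold enrichment at the summit, and −log10 p-values and −log10 q-values made by the authors' caller. No read total was analysed here, and the deposited columns were not normalized between lists.

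From the deposited fold and −log10 p-value, the whole number of fragments at each summit and the local background were solved (fold as fragments plus 1 over background plus 1, Poisson p). All peaks of all lists were solved within 0.001, and the lowest background was taken as the mean of the list. No peak lay past a chromosome end of GRCm38. Regions were the merged peaks of the lists. Counts of called regions and values at single regions were compared by two-sided exact permutation tests, which with 3 against 3 cannot go below 0.1. Regions called in all 6 lists were also compared with limma 3.58.1 in R 4.3.3 on normal scores of the fold rank, Benjamini-Hochberg adjusted over all of them. The scripts were tested on simulated data. No p is given for shares over the members, because members, gene lists and tests were chosen with earlier results of these data known. Genes named were the C-type members, the first and last of each cluster, members with a peak in all 6 lists or in all of 1 group and none of the other, the 5 with the highest mean fold percentile, the non-members between and beside the clusters, and the lists for non-clustered protocadherins, regulators, partners and cell types. The other members with a peak were named after their values were seen, so that each is accounted for. Replicates are separate samples by their labels, and p-values measure the spread between these samples, which may be technical. Sequence features came from the GRCm38 RefSeq assembly, and no sequence of this locus is printed. Python 3.11.15, pandas 2.3.3 and scipy 1.17.1 were used. Alternatives were other promoter windows, the summit in place of the peak, q and top-peak limits, lists left out, 2 classes of lists by shortest peak, the lists whose name matched, a replicate block, and, chosen after seeing the data, 1 TSS a gene and the span of each cluster alone. The overlap of groups at regulator genes was also counted after seeing the data. Of the photoreceptor list, 1 gene is not reported here.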

Additional observations from a re-analysis of the deposited data

How the results depend on the processing

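Differences are 4xIOP minus control. The share of member promoters with a peak (-7.60 points) turned to 1.75 with each list cut to its 16195 top peaks, was -4.09 with −log10 q of at least 5 and -0.88 and -12.3 in lists with a shortest peak above and below 200 bp, and moved to -22.8 between the 2 lists whose name matched their label. With one list left out it ran from -11.4 to -0.88. The share minus that of other genes (-2.95 points) turned to 1.52 with −log10 q of at least 5, to 3.20 with the lists cut to that number and to 1.26 in lists with a shortest peak above 200 bp, was -5.51 in those below, moved to -10.8 between the matching lists, and ran from -4.91 to 0.66 with one list left out, the positive value being that without control replicate 3. The number of regions elsewhere (-1) turned to 0.33 with the lists cut to that number, moved to -4 between the matching lists and ran from -1.67 to 0.33 with one list left out, and its exact permutation p stayed between 0.5 and 1. Members with a peak in all control lists and no 4xIOP list (0) numbered 0 to 1 with one list left out, 1 and 2 in the lists with a shortest peak above and below 200 bp and 13 between the matching lists, where all protein-coding genes gave 81 to 279, 436 and 839, and 2693. The opposite pattern (0) was found at 0 to 1 with one list left out, at 1 with the lists cut to that number and at 1 in lists with a shortest peak above 200 bp, where all protein-coding genes gave 0 to 37, 11 and 179. The cause of these shifts was not tested. Windows of 500 and 2500 bp, summit position, 1 TSS a gene and each cluster's own span left every difference in direction. By limma, 0 regions of the locus passed under all 11 alternatives, with adjusted p of at least 0.853 and 240 to 687 regions of the genome at an unadjusted p under 0.05. Of the locus, 1 region was at an unadjusted limma p under 0.05 in 2 alternatives, the alpha region at 37179616 when ranked by −log10 p (0.0423) and the Diaph1 region at 37876809 without 4xIOP replicate 3 (0.0355).

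The labels do not say whether same-numbered lists came from the 2 eyes of the same animals. Deviations from the group means in same-numbered lists correlated at -0.00965, -0.0654 and -0.154 over 10529 regions. With 3 lists in each group, these correlations cannot decide whether the lists were paired. With the replicate block the differences stayed at -7.60, -2.95 and -1 (exact sign-flip permutation p = 0.75 for the last, smallest possible 0.25), and limma with the block called 0 regions, with 321 at an unadjusted p under 0.05. No peak over mean background was called with fewer than 9 to 12 fragments, by list, and how far depth sets the calls was not tested.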
